A study of Mus musculus with 20 samples.

Results

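Interleukin-1 (IL-1) family cytokines and their receptors were followed across WT and Mcu-/- bone marrow-derived macrophages, the latter from mice with a conditional deletion of the mitochondrial calcium uniporter gene Mcu, at rest, after zymosan, and after zymosan in cells loaded with the Ca2+ chelator BAPTA-AM. The 10 genes were taken by name from the 21963 entries of the count table, with earlier results of these data known. They are the ligands Il1a, Il1b, Il18 and Il33, the soluble inhibitors Il1rn and Il18bp, the signalling receptor chains Il1r1, Il1rl1 and Il1rap, and the decoy receptor Il1r2. All 10 were in the table and 9 passed the filter on low counts. Il1r2 had at most 3 counts in every library and was not tested.

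A ligand of the family binds its own receptor chain and then recruits an accessory chain, which starts MyD88 signalling and NF-κB activation. The accessory chain is encoded by Il1rap for IL-1α, IL-1β and IL-33 and by Il18rap for IL-18. IL-1β and IL-18 are made as inactive precursors that caspase-1 cleaves, whereas IL-1α and IL-33 can act as alarmins released from damaged cells. The family also carries its own brakes: the receptor antagonist encoded by Il1rn occupies the IL-1 receptor without signalling, IL-18 binding protein captures IL-18, and the type 2 receptor encoded by Il1r2 takes up IL-1 without passing on a signal.

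RNA was sequenced from 20 libraries. WT macrophages were untreated (n = 4), given zymosan for 3 h (n = 5), or loaded with BAPTA-AM, which enters cells, and given zymosan for 3 h (n = 4). Mcu-/- macrophages were untreated (n = 4) or given zymosan for 3 h (n = 3), and no library had BAPTA-AM without zymosan or BAPTA-AM in Mcu-/- cells. Donor mice were aged 15 to 25 weeks, the Mcu-/- cells came from floxed mice with Cre under the Cx3cr1 promoter, zymosan (yeast cell wall particles) was used at 2 particles per cell and BAPTA-AM at 10 µM. Whether the WT mice carried Cre is not given in the sources used here. The labels call the libraries biological replicates, but nothing says which came from separate mice, so p-values measure the spread between these libraries.

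Counts per library summed to 14.4 to 23.95 M, so 1 CPM (a count scaled to a total of 1 M) is about 14 to 24 counts. Values below are normalized counts, meaning CPM after TMM scaling multiplied by the mean library size of 20.6 M, and a call is an adjusted p under 0.05 in edgeR's quasi-likelihood test over 11707 genes. As a check of genotype, Mcu ranged from 126 to 197 normalized counts over 13 WT libraries and from 54.2 to 83.4 over 7 Mcu-/- libraries. The Mcu-/- mean was 0.453 times that of WT untreated and 0.564 times with zymosan, so reads of the gene remained, and the deleted exons cannot be seen in counts per gene. Mcu-/- untreated replicate 4 stood apart: its mean chi-square per gene against replicates 1 to 3 was 212 to 220, against 1.60 to 6.33 in the other 28 replicate pairs, and leaving it out lowered the biological coefficient of variation of the whole fit from 12.4% to 3.56%. Results that rest on it are given with and without it. The macrophage label held, since all 8 macrophage markers were above 1 CPM in every group. The summed level of these 8 markers was 16080 to 16390 CPM in zymosan-stimulated WT libraries, 10410 to 10770 CPM in zymosan-stimulated Mcu-/- libraries and as low as 8556 CPM in untreated Mcu-/- libraries. The markers did not move as 1 list: in zymosan-stimulated Mcu-/- against WT cells the means of 3 were lower (Lyz2 at 3242 against 8183 CPM, Adgre1 at 2840 against 4920 and Itgam at 275 against 869) and those of 5 higher, Cd68 at 1158 against 309 CPM among them. In bulk RNA, fewer cells of a type and less RNA per cell cannot be told apart.

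Il1a and Il1b lie next to each other on chromosome 2 of mm10, 54597 bases apart and on the same strand, Il1a at 129299610 to 129309972 and Il1b at 129364570 to 129371139. Their upstream sequences are shown, with that of Il33, because these 3 had the lowest resting levels among the ligand genes and the largest zymosan responses. Each sequence is the 250 bases before a RefSeq start site on the GRCm38.p6 build, read 5′ to 3′ on the gene's strand. Capitals mark TATAAA and the AP-1 motif TGANTCA, both searched on both strands.
Il1a, chr2:129309973-129310222, minus strand: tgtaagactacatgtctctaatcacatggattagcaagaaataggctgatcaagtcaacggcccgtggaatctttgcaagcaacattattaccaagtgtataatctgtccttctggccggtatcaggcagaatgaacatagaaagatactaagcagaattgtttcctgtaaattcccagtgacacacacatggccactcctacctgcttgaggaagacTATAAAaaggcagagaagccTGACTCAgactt
Il1b, chr2:129371140-129371389, minus strand: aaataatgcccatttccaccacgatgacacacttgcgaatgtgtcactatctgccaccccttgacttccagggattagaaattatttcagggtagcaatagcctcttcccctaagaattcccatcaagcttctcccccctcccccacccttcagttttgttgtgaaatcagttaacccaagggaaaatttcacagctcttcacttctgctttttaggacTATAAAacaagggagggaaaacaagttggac
Il33, second of 2 start sites, chr19:29945540-29945789, plus strand: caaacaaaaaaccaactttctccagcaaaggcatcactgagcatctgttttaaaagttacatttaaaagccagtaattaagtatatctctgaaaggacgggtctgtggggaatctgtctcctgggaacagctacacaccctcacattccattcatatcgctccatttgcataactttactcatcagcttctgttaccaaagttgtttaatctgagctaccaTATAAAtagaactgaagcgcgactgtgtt
A TATAAA lay 32 to 27 bases before the start in Il1a, 31 to 26 in Il1b and 29 to 24 in this window of Il33, all on the gene's strand. Of 32817 promoter windows of the same length, 1.91% held TATAAA on the gene's strand between 40 and 20 bases before the start and 12.4% held it anywhere on either strand. Il1a also held TGACTCA 12 to 6 bases before its start, and 6.75% of all windows held an AP-1 match. The response chose these 3 genes, so their matches are shown as a description only. The other Il33 start site had TATAAA only at 203 to 198 bases, and counts per gene do not say which start was used. All 10 genes matched RefSeq, with 15 windows between them. Over these 15 windows TATAAA was found in 5, and the AP-1 motif in 2, that of Il1a and 1 of Il1rn. A κB motif was found in 1, that of the second Il1r1 start site, against 7.25% of all windows. The NFAT core TGGAAA was found in 3, 1 each of Il1b (238 to 233 bases before the start, on the opposite strand), Il1rn and Il18bp, against 18.6% of all windows, and an interferon-stimulated motif in 0, against 2.97%. These matches describe the letters in the windows and say nothing about which factor was bound.

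**Figure D1:**
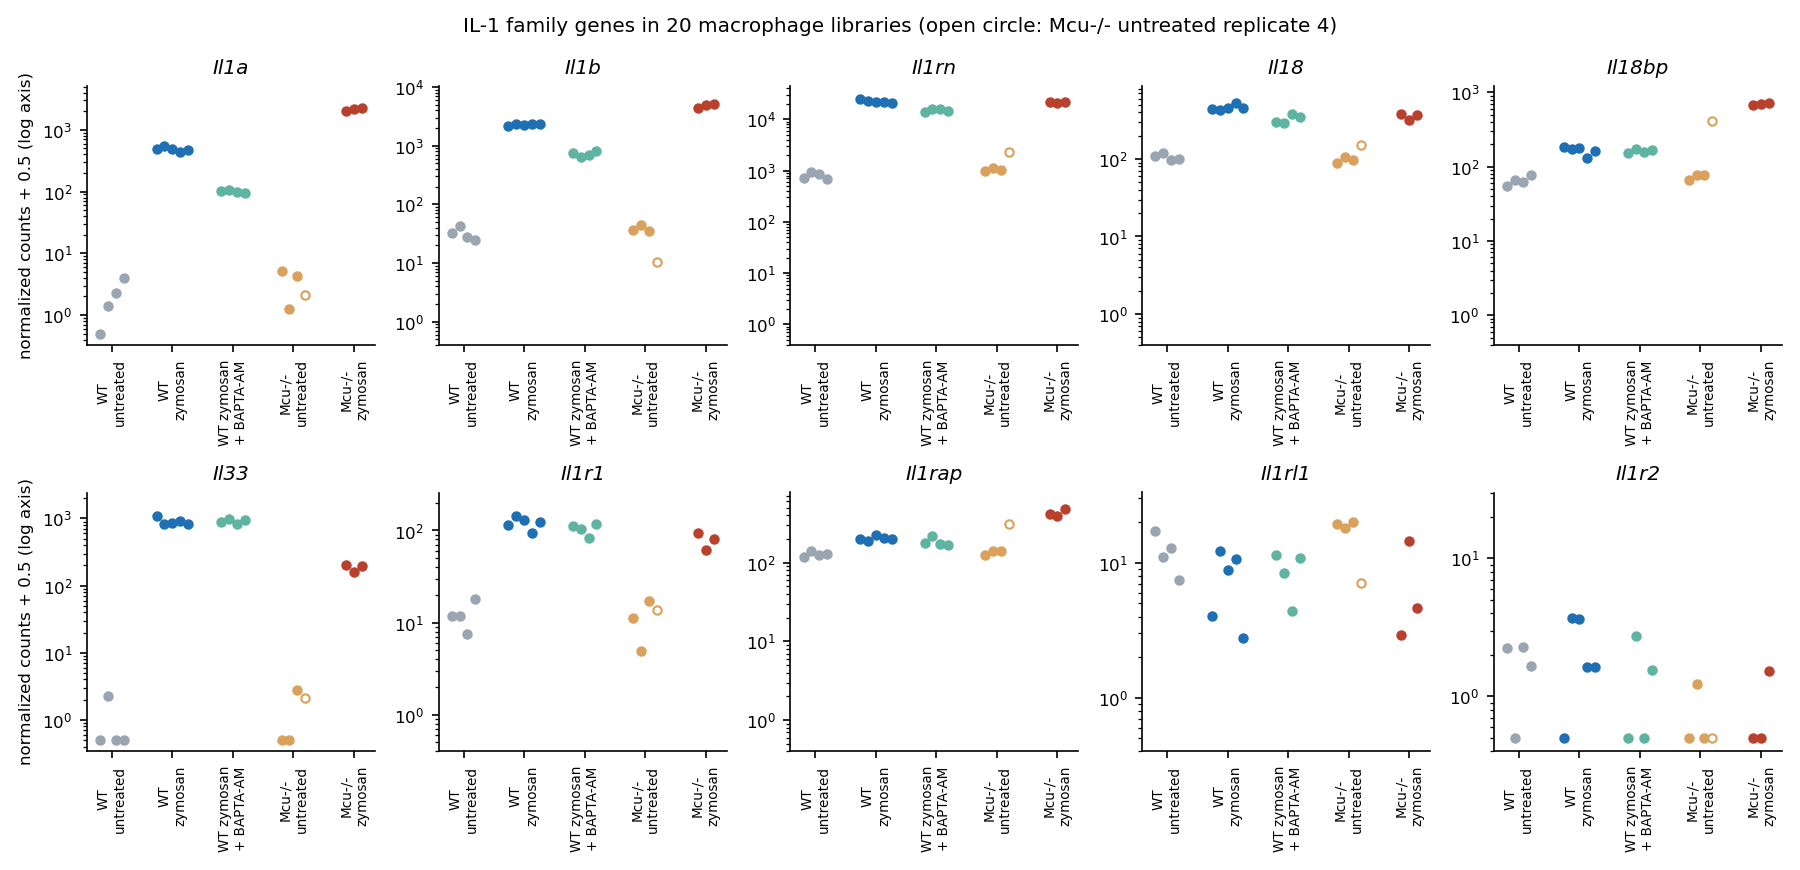
Normalized counts plus 0.5 of the 10 genes (log axis) in each of the 20 libraries, by group, with Mcu-/- untreated replicate 4 as an open circle. Il1a and Il33 rise from near the bottom of the axis in all zymosan groups, and Il1b rises from a higher level. The open circle lies above the other 3 untreated Mcu-/- libraries for Il1rn, Il18, Il18bp and Il1rap and below them for Il1b and Il1rl1.

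Zymosan raised most of the family in WT macrophages. In that comparison 8 of the 9 tested genes were called higher and none lower, where 32.4% of all tested genes were called higher and 36.8% lower. Those 8 were separated completely between the groups, as were 69.5% of all tested genes, and the median log2 fold change was 3.38 over the 9 genes and −0.04 over all genes tested. Il1rl1, which encodes the IL-33 receptor chain, was the exception, with a log2 fold change of −0.68 (SE 0.48, adjusted p = 0.214 by edgeR).

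Il33, the alarmin ligand, went furthest. Its 4 untreated WT libraries had 0, 1.75, 0 and 0 normalized counts (2 reads in all), and the 5 zymosan-stimulated libraries had 1104, 829, 842, 909 and 831. The ratio of the summed counts was 1930 (95% counting interval 533 to 15900), and this interval covers counting error only. Il1a, the other alarmin ligand, had 0, 0.874, 1.77 and 3.47 normalized counts untreated and 492, 537, 496, 441 and 478 with zymosan. That is a ratio of 349 (counting interval 160 to 953) from 6 untreated reads. Il1b, which encodes the ligand processed by caspase-1, was already detectable at rest with 31.6, 42.0, 27.4 and 24.3 normalized counts, and reached 2146, 2368, 2260, 2361 and 2365. Its log2 fold change was 6.18 (SE 0.20, adjusted p = 1.91e-15 by edgeR). Unlike Il1a and Il33, Il1b was above the detection floor of 3 counts in every untreated library.

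Il18 behaved differently from the other ligands in that it was well expressed at rest. It had 109, 117, 96.2 and 98.3 normalized counts in untreated WT libraries and 440, 431, 457, 532 and 450 with zymosan (log2 fold change 2.13, SE 0.14, adjusted p = 5.54e-11 by edgeR). The brakes rose as well. Il1rn, the receptor antagonist gene, went from 710, 943, 849 and 673 to 24755, 22273, 21933, 21761 and 20650, a log2 fold change of 4.81 (SE 0.23, adjusted p = 5.21e-13 by edgeR). Il18bp went from 53.6, 64.7, 61.8 and 76.3 to 181, 171, 178, 130 and 163, a log2 fold change of 1.37 (SE 0.43, adjusted p = 0.00886 by edgeR).

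Among the receptor genes, Il1r1, the signalling receptor for IL-1α and IL-1β, changed most. It had 11.4, 11.4, 7.06 and 17.3 normalized counts at rest and 114, 145, 128, 92.6 and 125 with zymosan (log2 fold change 3.38, SE 0.26, adjusted p = 1.04e-09 by edgeR). Il1rap, the accessory chain of the IL-1 and IL-33 receptors, moved little, from 117, 141, 124 and 127 to 200, 188, 227, 203 and 202. Its log2 fold change was 0.68 (SE 0.21, adjusted p = 0.00669 by edgeR) with TMM and 0.19 on library totals, a scaling that lowers every gene's zymosan response in WT cells by 0.49. Il1rl1 had 6.94 to 16.7 normalized counts untreated and 2.29 to 11.7 with zymosan. Each of the other genes kept its direction in WT cells on library totals. Mast cells and basophils are known for high Il1rl1. Of their 5 markers, 4 were at the floor in the zymosan-stimulated WT libraries and the sum of all 5 was at most 0.569 CPM. Il1rl1 itself averaged 0.350 CPM in these libraries. The part of such cells in the Il1rl1 level was not tested.

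Levels of different genes were compared as CPM per kb of merged exons. At rest in WT cells the order began with Il1rn at 6.96 CPM per kb (5.90 to 8.26) and Il18 at 4.95 CPM per kb (4.53 to 5.51), with Il18bp and Il1b next at 1.03 and 0.797 CPM per kb and overlapping ranges. After zymosan in WT cells Il1rn stood at 195 CPM per kb (181 to 217), Il1b at 58.5, Il18 at 21.7, Il33 at 15.2 and Il1a at 12.01, and none of these neighbours overlapped between libraries. The receptors stayed low, Il1r1 at 0.921 and Il1rap at 0.871 CPM per kb with overlapping ranges and Il1rl1 at 0.0508 CPM per kb. In zymosan-stimulated Mcu-/- cells the order was Il1rn (187), Il1b (122), Il1a (52.5), Il18 (16.7), Il18bp (11.2), Il33 (3.10), Il1rap (1.83) and Il1r1 (0.595 CPM per kb), with no overlap between neighbours. Per kb, Il1a thus stood below Il18 and Il33 in zymosan-stimulated WT cells and above both in zymosan-stimulated Mcu-/- cells. Its place against Il18 in WT cells rests on exon length. Before division by length, Il1a averaged 489 and Il18 462 normalized counts there, with overlapping libraries. Levels and ratios per kb use merged exons, and which transcripts of a gene were present was not measured. With BAPTA-AM the ranges of Il1b (18.4 CPM per kb) and Il18 (15.6 CPM per kb) overlapped, as did those of Il18 and Il33 (15.4 CPM per kb).

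**Figure D2:**
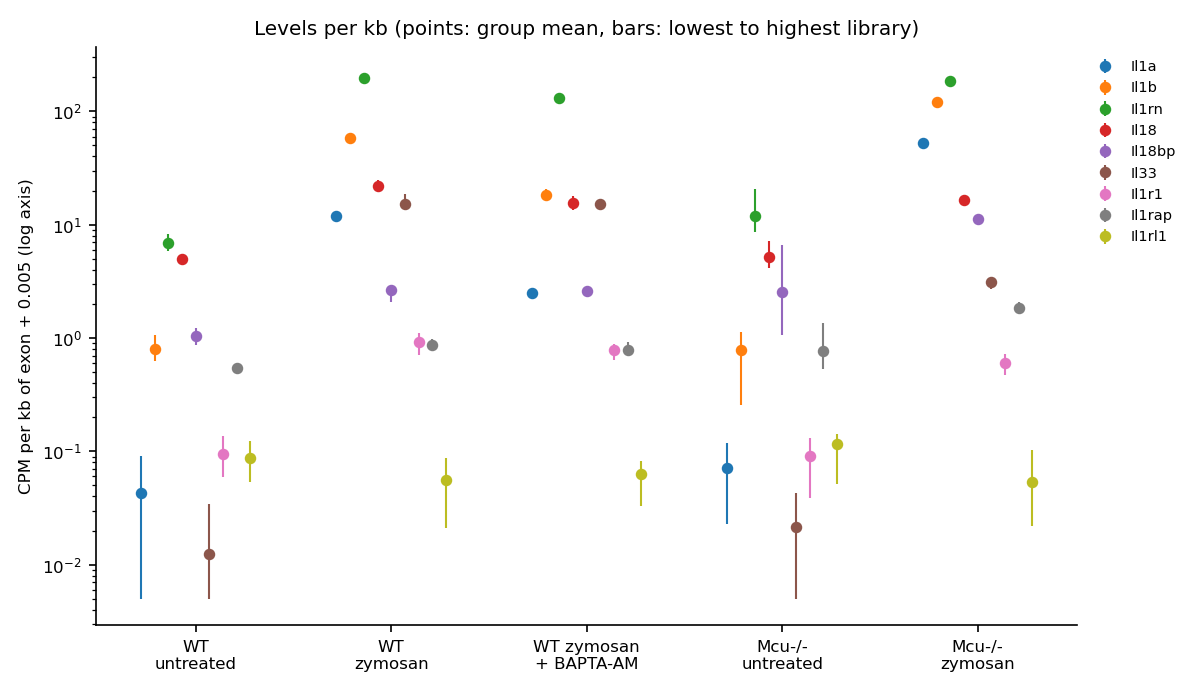
CPM per kb of merged exons plus 0.005 (log axis) for 9 genes in the 5 groups, as group means with bars from the lowest to the highest library. Il1rn is the highest gene in every group, and Il1a lies below Il18 and Il33 in zymosan-stimulated WT cells but above both in zymosan-stimulated Mcu-/- cells.

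Mcu-/- and WT macrophages were compared in zymosan-stimulated cells, the question being which genes differ with the loss of Mcu. Untreated Mcu-/- replicate 4 lay near the zymosan-stimulated Mcu-/- mean for Lyz2 (2823 and 3242 CPM), against 7824 to 8390 CPM in replicates 1 to 3. The same held for Cd68 (971 and 1158 CPM, against 251 to 259) but not for Cd14 (198 and 1390 CPM, against 235.9 to 241.5). The part of such differences among Mcu-/- libraries in this comparison was not tested. The family split. Il1a, Il1b, Il18bp and Il1rap were called higher in Mcu-/- than in WT macrophages, Il33, Il18 and Il1r1 were called lower, and Il1rn and Il1rl1 were not called. Over all tested genes 31.8% were called higher and 30.3% lower, and 64% had no overlap between these groups, so 4 and 3 calls and 6 genes without overlap among 9 are close to the background. The members' median log2 fold change was −0.06, against 0.02 over all genes tested.

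The IL-1 agonists rose together. Il1a had 1991, 2168 and 2246 normalized counts in the Mcu-/- libraries, against 441 to 537 in WT. Its log2 fold change was 2.13 (SE 0.11, adjusted p = 4.71e-11 by edgeR). Il1b had 4396, 4873 and 5101 against 2146 to 2368, a log2 fold change of 1.06 (SE 0.14, adjusted p = 8.27e-06 by edgeR). In both genes every Mcu-/- library was above every WT library, and the exact two-sided permutation p was 0.0179, the smallest that 3 against 5 libraries allow. The receptor antagonist gene did not follow them. Il1rn had 21295, 21108 and 21619 in Mcu-/- libraries, inside the WT range of 20650 to 24755, with a log2 fold change of −0.06 (95% interval −0.46 to 0.33).

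The ratio of antagonist to agonist transcripts per kb was therefore lower in Mcu-/- cells. Il1rn to Il1b was 3.97, 3.24, 3.34, 3.17 and 3.01 in zymosan-stimulated WT libraries and 1.67, 1.49 and 1.46 in zymosan-stimulated Mcu-/- libraries, without overlap. At rest the ratio was 7.63, 7.66, 10.5 and 9.33 in WT libraries, and BAPTA-AM loaded libraries with zymosan had 6.36, 8.42, 8 and 6.15, of which 2 lay within the resting WT range and 2 below it. Untreated Mcu-/- replicates 1 to 3 had 9.34, 8.61 and 10.2, and replicate 4 had 79.0. Against Il1a, the geometric mean ratio of Il1rn was 16.2 in zymosan-stimulated WT, 52.8 with BAPTA-AM and 3.57 in zymosan-stimulated Mcu-/- libraries. The balance of the 2 agonists also shifted: Il1a to Il1b was 0.181 to 0.222 in zymosan-stimulated WT, 0.114 to 0.160 with BAPTA-AM and 0.425 to 0.437 in zymosan-stimulated Mcu-/- libraries. Untreated libraries gave no usable Il1a ratio, since Il1a had 0 to 6 counts there.

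**Figure D3:**
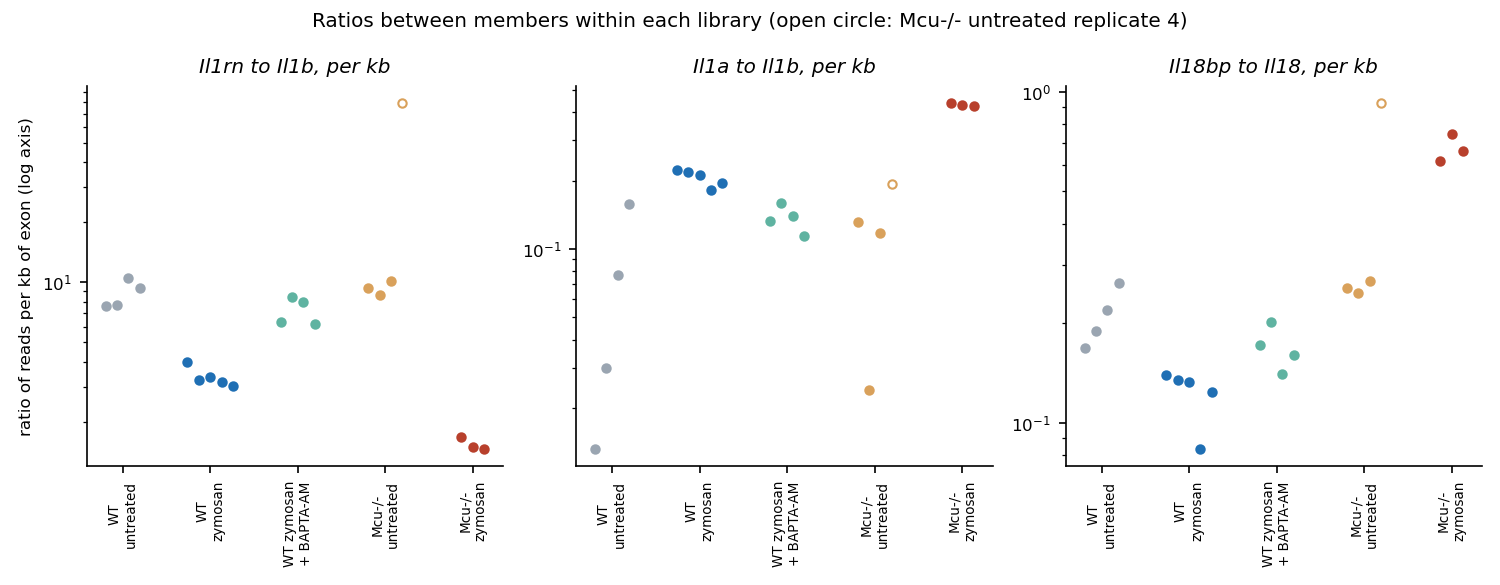
Ratios of reads per kb (log axis) of Il1rn to Il1b, Il1a to Il1b and Il18bp to Il18 in each library, by group, with Mcu-/- untreated replicate 4 as an open circle. The 3 zymosan-stimulated Mcu-/- libraries lie below all others for Il1rn to Il1b (1.46 to 1.67) and above all others for Il1a to Il1b, and for Il18bp to Il18 only the open circle is higher.

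IL-18 and its inhibitor moved apart. Il18 had 375, 320 and 366 normalized counts in zymosan-stimulated Mcu-/- libraries against 431 to 532 in WT (log2 fold change −0.38, SE 0.14, adjusted p = 0.0202 by edgeR). This call was lost without WT zymosan replicate 4 (adjusted p = 0.0511) and without Mcu-/- zymosan library 4 (adjusted p = 0.0953), over all genes tested by edgeR. Il18bp had 682, 701 and 713 against 130 to 181, a log2 fold change of 2.09 (SE 0.40, adjusted p = 0.000214 by edgeR). The ratio of Il18bp to Il18 per kb was 0.619, 0.745 and 0.663 in these Mcu-/- libraries and 0.0835 to 0.140 in zymosan-stimulated WT libraries. Untreated Mcu-/- replicate 4 also had high Il18bp, 415 normalized counts against 65.6 to 77.0 in replicates 1 to 3. Its ratio to Il18 was 0.922 and theirs 0.247 to 0.268.

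Il33 went the other way from Il1a. It had 201, 160 and 193 normalized counts in zymosan-stimulated Mcu-/- libraries and 829 to 1104 in WT (log2 fold change −2.29, SE 0.16, adjusted p = 2.49e-09 by edgeR). Fibroblasts and endothelium, known sources of Il33, were represented by 6 markers, whose sum was 65.3 to 75.3 CPM in these Mcu-/- libraries and 46.2 to 50.9 CPM in WT. Of these, Col1a1 and Col1a2 averaged 21.7 and 23.2 CPM in zymosan-stimulated Mcu-/- libraries and 2.03 and 2.19 CPM in WT. Col3a1 (3.73 against 0.906 CPM) and Cdh5 (7.05 against 1.37 CPM) were also higher in Mcu-/- than in WT libraries. Pecam1 (15.4 against 41.9 CPM) and Pdgfra (0.111 against 0.143 CPM) were lower. The part of other cells in the Il33 level was not tested.

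In the receptor genes, Il1rap had 415, 389 and 484 normalized counts in zymosan-stimulated Mcu-/- libraries against 188 to 227 in WT (log2 fold change 1.07, SE 0.21, adjusted p = 0.000247 by edgeR). Il1r1 had 93.5, 60.6 and 80.0 against 92.6 to 145, so that 1 Mcu-/- library lay within the WT range, and its log2 fold change was −0.63 (SE 0.23, adjusted p = 0.0229 by edgeR). The Il1r1 call was lost without WT zymosan replicate 2 (adjusted p = 0.0555 by edgeR), without Mcu-/- zymosan library 4 (0.123) or library 5 (0.0555), and with the replicate number as a block (0.0535). Il1rl1 had 2.43, 13.98 and 4.10 normalized counts against 2.29 to 11.7, and its log2 interval of −1.26 to 1.06 left both directions possible. Without untreated Mcu-/- replicate 4 the calls were 4 higher and 3 lower as well (36.4% and 33.7% of all tested genes), with log2 fold changes of 2.13 for Il1a, 1.06 for Il1b and −2.29 for Il33.

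**Figure D4:**
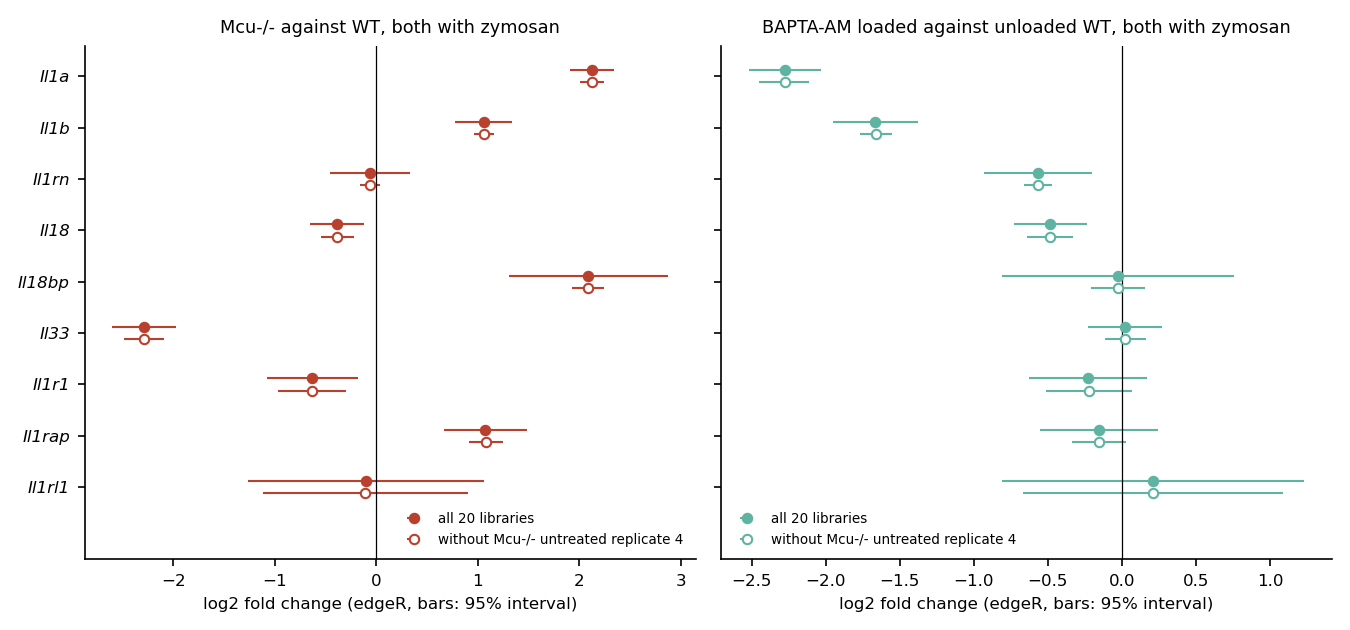
Log2 fold changes from edgeR for 9 genes, with approximate 95% intervals derived from the test, for Mcu-/- against WT and BAPTA-AM loaded against unloaded WT, all with zymosan. Filled points use all 20 libraries and open points leave out Mcu-/- untreated replicate 4. Il1a and Il1b lie to the right of 0 in the first panel and to the left in the second, while Il33 lies at −2.29 in the first and at 0.02 in the second.

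BAPTA-AM loading was meant to show which part of the response needs Ca2+ elevations. No library had BAPTA-AM without zymosan, so other effects of the loading cannot be told apart from the loss of Ca2+ elevations. The BAPTA-AM comparison shares the zymosan-stimulated WT libraries with the Mcu comparison, so the pair of comparisons is not independent. Il1a, Il1b and Il18 were called lower with BAPTA-AM and none of the 9 genes was called higher, where 6.33% of all tested genes were called lower and 6.43% higher. Complete separation of the libraries was seen for 4 genes, against 24.3% of all tested genes. Il1a had 103, 105, 99.6 and 95.9 normalized counts, a log2 fold change of −2.28 (SE 0.12, adjusted p = 3.67e-09 by edgeR) from the unloaded cells. Il1b had 754, 635, 692 and 818, a log2 fold change of −1.67 (SE 0.15, adjusted p = 3.81e-07 by edgeR). Both agonists were thus at 0.206 and 0.315 times the unloaded mean.

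Il1rn had 13934, 15532, 16078 and 14626 normalized counts with BAPTA-AM, all below the 5 unloaded libraries. Its log2 fold change was −0.57 (95% interval −0.93 to −0.20), which missed the threshold with all libraries (adjusted p = 0.0535 by edgeR) and passed it without untreated Mcu-/- replicate 4 (adjusted p = 3.05e-12 by edgeR), where 16.5% of all tested genes were called lower. It also passed without untreated Mcu-/- replicate 1 (0.0399) or 3 (0.0435), with DESeq2's size factors (0.0443) or the strict filter (0.0469) in edgeR, with the compared groups alone (1.9e-10) and in DESeq2's own test (adjusted p = 0.0168). Il18 had 301, 287, 384 and 351, a log2 fold change of −0.48 (SE 0.13, adjusted p = 0.0148 by edgeR). This call was lost without BAPTA-AM replicate 1 (adjusted p = 0.0581 by edgeR) or replicate 2 (0.0629). Il33 had 891, 997, 836 and 933, mixed among the unloaded libraries, with a log2 fold change of 0.02 (95% interval −0.23 to 0.27). Il18bp likewise had 152, 170, 159 and 166, with a log2 fold change of −0.03 and a wide interval of −0.81 to 0.76 that narrowed without untreated Mcu-/- replicate 4, which enters the shared estimate of the spread. Il1r1 (−0.23, interval −0.63 to 0.17), Il1rap (−0.16, interval −0.55 to 0.24) and Il1rl1 (0.21, interval −0.81 to 1.23) were not called.

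What was left of the response under BAPTA-AM was large. Against untreated WT cells, with which this comparison shares its control libraries, 8 of the 9 genes were called higher and none lower, where 31.9% and 34.2% of all tested genes were, and the same 8 had no overlap between groups, where 69.6% had none. Il33 had a ratio of summed counts of 1960 (counting interval 543 to 16200) and Il1a one of 71.9 (32.7 to 197). Il1b rose by a log2 fold change of 4.51 (SE 0.21, adjusted p = 3.54e-13 by edgeR) and Il1rn by 4.24 (SE 0.22, adjusted p = 3.56e-12 by edgeR). The accessory chain gene Il1rap was called with a log2 fold change of 0.53 (adjusted p = 0.0408 by edgeR), which was 0.10 on library totals and lost its call without any one of 6 libraries.

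At rest, Mcu-/- and WT macrophages did not differ in any of the 9 genes by an adjusted p under 0.05, where 0.128% of all tested genes were called higher and 0.222% lower. Il1rn was the only gene without overlap, a pattern held by 7.09% of all tested genes. It had 981, 1108, 1016 and 2343 normalized counts in Mcu-/- against 673 to 943 in WT libraries, with a log2 fold change of 0.78 (SE 0.20, adjusted p = 0.129 by edgeR). Without replicate 4 its log2 fold change was 0.38 (SE 0.07, adjusted p = 0.00101 by edgeR), where 1.53% of all tested genes were called higher, and DESeq2 called it with all libraries (adjusted p = 0.0176). The intervals of the other ligands with measurable levels at rest were −0.55 to 0.51 for Il1b and −0.21 to 0.36 for Il18.

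Replicate 4 of the untreated Mcu-/- group set much of this spread. Relative to the mean of replicates 1 to 3 it had 5.67 times the Il18bp, 2.33 times the Il1rap, 2.26 times the Il1rn and 1.57 times the Il18 counts. It had 0.259 times their Il1b and 0.349 times their Il1rl1. Replicates 1 to 3 had 73.1 ± 6.54 normalized counts of Il18bp and 135 ± 9.77 of Il1rap (SD, n = 3), near the WT means of 64.1 and 127. For Il18bp, Il1rap and Il1rl1 the difference of this library from its group had the same sign as that between zymosan-stimulated Mcu-/- and WT cells. For Il1b, Il18, Il1rn, Il1a, Il33 and Il1r1 it had the opposite sign. The last 3 had few counts at rest, and the zymosan-stimulated groups hardly differed in Il1rn (log2 ratio −0.06) and Il1rl1 (−0.07). The library was also the one with the lowest summed macrophage markers, 8556 CPM, although only 4 of the 8 markers lay below replicates 1 to 3 and the other 4 lay above them. Lyz2 was at 2823 CPM against 7824 to 8390 and Cd68 at 971 CPM against 251 to 259. The part of this in the Mcu-/- values was not tested.

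**Figure D5:**
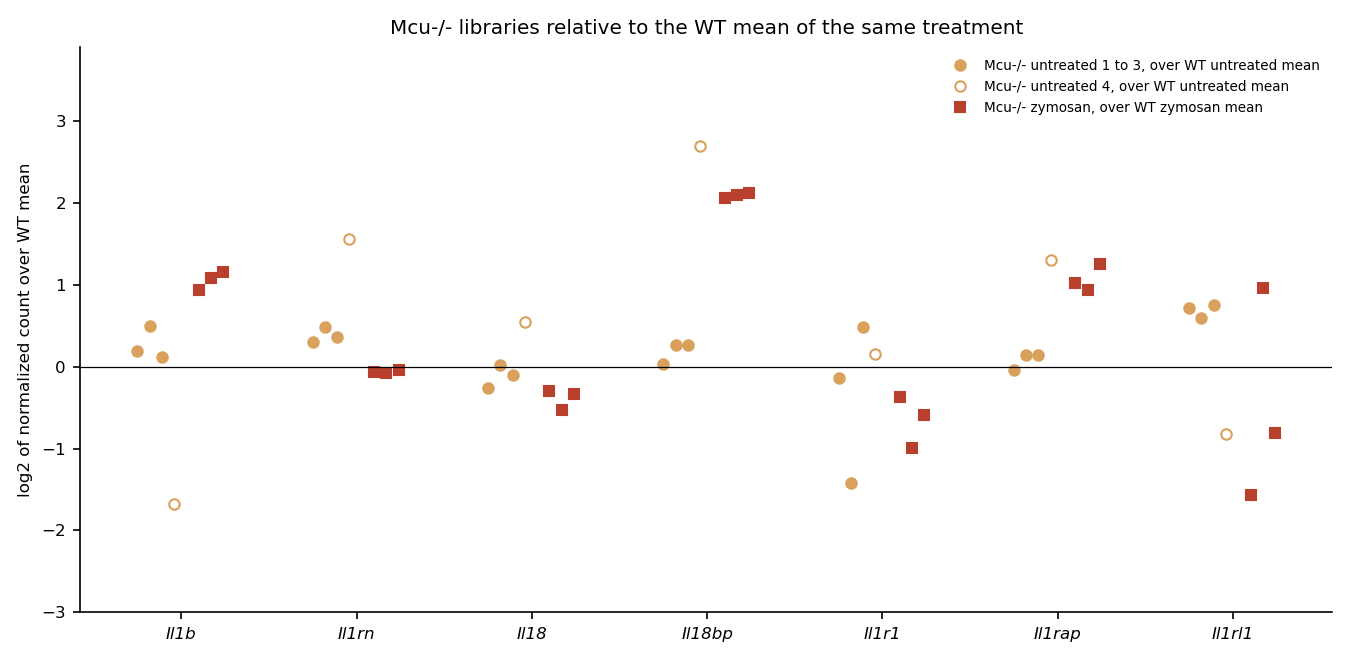
Log2 of the normalized count of 7 genes in each Mcu-/- library over the WT mean of the same treatment, for untreated replicates 1 to 3 (filled circles), untreated replicate 4 (open circles) and the 3 zymosan libraries (squares). For Il18bp and Il1rap the open circle lies with the squares and the filled circles near 0, while for Il1b the open circle lies below 0 and the squares above it.

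Within Mcu-/- cells zymosan raised the same 8 genes by call, where 34.3% of all tested genes were called higher and 39.4% lower, and these 8 were separated completely between the groups, as were 61.7% of all tested genes. The ratio of summed counts was 800 (counting interval 476 to 1460) for Il1a, from 4.57, 0.733, 3.76 and 1.64 normalized counts at rest. It was 193 (82.2 to 598) for Il33, from 0, 0, 2.26 and 1.64. Il1b started from 35.8, 44.0, 33.9 and 9.82 and had a log2 fold change of 7.26 (SE 0.21, adjusted p = 4.02e-16 by edgeR), or 6.98 without replicate 4. Il18bp rose by 2.15 (SE 0.42, adjusted p = 0.00016 by edgeR) with replicate 4 and by 3.26 (SE 0.10, adjusted p = 1.13e-27 by edgeR) without it. Il1rap likewise rose by 1.26 with and 1.68 without it, Il1rn by 3.97 with and 4.37 without it, and Il18 by 1.67 with and 1.86 without it. Il1rl1 was not called with all libraries (log2 fold change −1.20, adjusted p = 0.052 by edgeR) and was called lower without replicate 4 (−1.45, adjusted p = 0.00342 by edgeR), where 42.4% of all tested genes were called lower.

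The zymosan responses of the genotypes were then compared directly. The response of Il1b was larger in Mcu-/- cells by a log2 of 1.08 (SE 0.31, adjusted p = 0.012 by edgeR), that of Il1rn smaller (difference −0.84, SE 0.29, adjusted p = 0.03 by edgeR) and that of Il33 smaller (difference −3.16, SE 1.14, adjusted p = 0.0392 by edgeR). Of all tested genes 15.2% had a larger and 20% a smaller response. The Il1rn and Il33 calls were both lost with the replicate number as a block (adjusted p = 0.0557 and 0.0751 by edgeR), without WT untreated replicate 1 (0.0568 and 0.0745) or 4 (0.0597 and 0.066) and without Mcu-/- zymosan library 4 (0.0598 and 0.0511). That of Il1rn was also lost without Mcu-/- zymosan library 3 (adjusted p = 0.0568 by edgeR) or 5 (0.055), and that of Il33 without WT untreated replicate 3 (0.0749) or untreated Mcu-/- replicate 3 (0.251). Without replicate 4, where these shares were 31% and 29.3%, Il1b (0.80, adjusted p = 0.00163 by edgeR), Il18bp (1.88, 4.11e-13) and Il1rap (0.99, 8.5e-08) had larger responses and Il1rn a smaller one (−0.44, 5.93e-05). The Il33 difference was then −2.85 with an adjusted p of 0.144 in edgeR. The calls of Il18bp and Il1rap rest on leaving out replicate 4, which had 415 and 313 normalized counts of them without zymosan. Whether replicates 1 to 3 are the like baseline for the zymosan-stimulated Mcu-/- libraries was not tested. A larger response and a difference between libraries cannot be told apart here. For Il33 and Il1a (1.25, adjusted p = 0.201 by edgeR) the untreated groups held 2 to 14 reads each, so these differences of responses were imprecise although the zymosan levels differed clearly.

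Genes around the family were counted from lists of its pathway. Of 5 other ligand genes searched by symbol, only Il1f10 was found, at 0 counts in all libraries. Il36a, Il36b, Il36g and Il36rn were not found under these symbols. Other symbols of these genes were not searched, so their presence in the data is not known and they were not analysed here. Of 6 other receptor genes 3 were tested. Il18rap, the accessory chain of the IL-18 receptor, rose with zymosan in WT cells from 6.35 ± 0.828 to 20.1 ± 5.71 normalized counts (adjusted p = 0.000225 by edgeR), but its partner chain Il18r1 had at most 1 count in any library. Sigirr and Il1rl2 were not called in that comparison, where 32.4% of all tested genes were higher and 36.8% lower, but without untreated Mcu-/- replicate 4 Il1rl2 was called lower (log2 fold change −0.80, adjusted p = 0.0359 by edgeR), as were 41.3% of all tested genes. On chromosome 1, Il1r2, Il1r1, Il1rl2, Il1rl1, Il18r1 and Il18rap follow each other in this order, with 136 bases between Il1rl1 and Il18r1, and of the 4 tested among these 6 neighbours Il1r1 and Il18rap rose with zymosan in WT cells while Il1rl2 and Il1rl1 were not called with all libraries.

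Downstream of the receptors, 12 of 20 signalling genes were called higher and 5 lower with zymosan in WT cells, against 32.4% and 36.8% of all tested genes. Peli1, a ubiquitin ligase acting on IRAK proteins, rose most (log2 fold change 3.77, SE 0.04, adjusted p = 1.02e-22 by edgeR) and Tab1, a partner of the kinase TAK1, fell most (−2.48, SE 0.11, adjusted p = 1.28e-13 by edgeR). In zymosan-stimulated Mcu-/- against WT cells 7 were higher and 2 lower, against 31.8% and 30.3% of all tested genes, with Ikbkg, the regulatory subunit of the IκB kinase, at 1.65 (SE 0.23, adjusted p = 8.83e-06 by edgeR) and Peli2 at −0.88 (SE 0.23, adjusted p = 0.00324 by edgeR). Untreated Mcu-/- replicate 4 already had 2916 normalized counts of Ikbkg, against 1049 to 1101 in replicates 1 to 3 and 3618 in zymosan-stimulated Mcu-/- libraries, and 138 of Peli2 against 297 to 331. With BAPTA-AM 3 were higher and 3 lower, against 6.43% and 6.33% of all tested genes, among them Tab1 at 0.47 (adjusted p = 0.0122 by edgeR) and Myd88, the receptor adaptor, at −0.26 (adjusted p = 9.99e-05 by edgeR). Without untreated Mcu-/- replicate 4 the counts were 8 and 5 in Mcu-/- against WT cells (36.4% and 33.7% of all tested genes) and 6 and 3 with BAPTA-AM (15.3% and 16.5%). The median log2 fold change of the 20 genes was 0.22, 0.09 and 0.05 in these comparisons.

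Of 14 genes for maturation and release of the ligands, 9 were higher and 2 lower with zymosan in WT cells, where 32.4% and 36.8% of all tested genes were. Casp4, the inflammatory caspase that senses cytosolic lipopolysaccharide, rose by a log2 fold change of 2.66 (SE 0.11, adjusted p = 7.95e-14 by edgeR) and P2rx7, an ATP-gated channel, fell (log2 fold change −1.55, SE 0.06, adjusted p = 1.4e-14 by edgeR). In zymosan-stimulated Mcu-/- against WT cells 6 were higher and 5 lower, close to the 31.8% and 30.3% of all tested genes. Nlrp3, the inflammasome sensor, was at 9675 against 3626 normalized counts (log2 fold change 1.42, SE 0.10, adjusted p = 1.41e-09 by edgeR), and Pycard, its adaptor, at 792 against 2482 (log2 fold change −1.65, SE 0.25, adjusted p = 2.43e-05 by edgeR). Untreated Mcu-/- replicate 4 was at 800.1 for Pycard, against 2558 to 2645 in replicates 1 to 3, and at 870 for Nlrp3, against 1280 to 1297. Casp1, which cleaves the IL-1β and IL-18 precursors, was at 3111 against 4096 (log2 fold change −0.40, adjusted p = 1.34e-05 by edgeR), and is named after its value was seen. With BAPTA-AM none of the 14 was higher and 3 were lower (6.43% and 6.33% of all tested genes), Nlrp3 by the most (−0.38, adjusted p = 0.00776 by edgeR), and without untreated Mcu-/- replicate 4 the counts were 1 and 8 (15.3% and 16.5%). Their median was −0.11 with BAPTA-AM, against 0.00 over all genes tested.

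The genes most like each of 4 members were taken by Pearson's r over the 20 libraries among 8343 genes of at least 10 CPM. Since the libraries fall into treatment groups, this is a description of group patterns. The closest to Il1a were Urgcp (r = 0.990), Frmd4a and Nfxl1, and those to Il1b were Fgl2 (r = 0.995), Frmd4a and Cd14. Those to Il1rn were the chemokine gene Ccl5 (r = 0.998), 1 of the entries under the repeated symbol Pnp, and Zc3hav1. Those to Il33 were Htra4 (r = 0.997), H3f3b and Etf1. Htra4 averaged 3890 normalized counts in zymosan-stimulated WT, 2813 with BAPTA-AM and 702 in zymosan-stimulated Mcu-/- libraries, and Ccl5 averaged 13840, 8847 and 12360.

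Reads of 4 members could be shared with genes on the opposite strand, as the strand setting of the counting is not given in the sources used here. Exons of Il1a overlap Gm14023 by 222 bases, those of Il1b overlap Il1bos by 25, those of Il1rap overlap Gm20319 by 552 and those of Il18bp overlap Numa1 by 80. Of these partners only Numa1 was in the table, with 1375 and 1363 normalized counts in zymosan-stimulated WT and Mcu-/- libraries, where Il18bp had 164 and 699.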

How the data were processed

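RNA of bone marrow-derived macrophages was measured in 20 libraries. The authors removed adaptors with cutadapt, mapped paired-end reads to mm10 with STAR, counted reads per gene with HTSeq and deposited 1 table of counts per gene without normalization. Their own tests used DESeq2. Columns of the Mcu-/- zymosan group carry the numbers 3, 4 and 5 and its labels the numbers 1 to 3, and column numbers are used here.

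The software was edgeR 4.0.16, DESeq2 1.42.0 and limma 3.58.1 under R 4.3.3. Genes passing filterByExpr were scaled by TMM and all 20 libraries entered a quasi-likelihood fit in edgeR that had a coefficient for each of 5 groups, and p-values were adjusted by Benjamini-Hochberg over 11707 genes. Single genes were compared by exact two-sided permutation tests on log2 values. Symbols were matched to GENCODE M21, whose merged exon lengths gave levels per kb. Ratios within a library used counts per kb with 0.5 added to each count. Promoters came from RefSeq. The members, pathway lists and naming rule were chosen with earlier results of these data known. Named pathway genes were the called gene with the largest rise and the largest fall per list and comparison, with at least 1 CPM in the higher group.

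The fits were tested on simulated data for zymosan-stimulated Mcu-/- against WT cells. Of 199 genes changed by a log2 of 1, edgeR with TMM recovered 181 among 11495 tested, with 11 false calls. All 166 with a mean of 50 or more counts over all libraries were recovered, and 15 of 33 below that. This split was set after the missed genes were seen. The simulation gave every gene the same spread and held no library that stood apart, so it does not give the recovery in the real data. Group means were under 50 normalized counts for Il1rl1 in all groups, and for Il1a, Il1b, Il33 and Il1r1 at rest. Same-numbered libraries did not deviate together (correlations of −0.05 to 0.06), so the numbers were not treated as pairs. Other settings tried were scaling by library totals or by DESeq2's size factors, a loose filter (1 count in any library) and a strict one (10 counts in all libraries), DESeq2's test, the compared groups alone, a replicate block, other values added in ratios, and leaving out each library.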

Additional observations from a re-analysis of the deposited data

Results flagged for a closer look

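In 7 of the 33 groups of 4 or 5 libraries checked, 1 library lay far from the others of its group, where chance gives about 1 in 20 independent groups. The 33 groups are genes measured in the same libraries and are not independent, so this rate does not measure an excess. Of the 7, 4 were untreated Mcu-/- replicate 4, with 2343 normalized counts of Il1rn (others 981 to 1108), 414.8 of Il18bp (others 65.6 to 77.0), 313.3 of Il1rap (others 123 to 141) and 6.544 of Il1rl1 (others 17.6 to 19.6). In zymosan-stimulated WT cells, replicate 4 had 531.8 normalized counts of Il18 (others 431 to 457) and replicate 1 had 1104 of Il33 (others 829 to 909). With BAPTA-AM, replicate 2 had 216 of Il1rap (others 168 to 176).

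The zymosan response differed between genotypes, by the edgeR test of the difference itself, for Il1b (log2 difference, Mcu-/- minus WT, 1.079, adjusted p = 0.012), Il1rn (−0.8386, adjusted p = 0.03) and Il33 (−3.16, adjusted p = 0.0392). Without untreated Mcu-/- replicate 4 these were 0.80, −0.44 and −2.85, the last with an edgeR adjusted p of 0.144.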

How the results depend on the processing

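Of 80 values of the ratios between members under other settings, none moved by more than the spread between replicates. Leaving out 1 library cannot move a group mean by more than that spread, so those values were no test of it. Il1rn to Il1b in untreated Mcu-/- libraries had a geometric mean of 16. The ratio was 79 in replicate 4 and 8.61 to 10.2 in replicates 1 to 3. Requiring at least 10 counts in every library tests fewer members by construction and left 5 called higher with zymosan in WT cells, 5 in Mcu-/- cells and 5 with BAPTA-AM against untreated, 1 called lower in zymosan-stimulated Mcu-/- against WT cells, and 1 with a smaller response in Mcu-/- cells. For untreated Mcu-/- against WT cells, DESeq2 called 1 member higher (Il1rn). The count of members with a smaller response in Mcu-/- cells was 0 when the groups were compared alone and 0 with the replicate block; the cause was not tested. The block also ended the call of Il1r1 in zymosan-stimulated Mcu-/- against WT cells and changed no other member's call.

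Leaving out 1 library at a time gave 0 to 1 members called lower with zymosan in Mcu-/- cells (1, Il1rl1, without WT zymosan replicate 5, untreated Mcu-/- replicate 4 or Mcu-/- zymosan library 4), 1 to 3 lower in zymosan-stimulated Mcu-/- against WT cells (1 without Mcu-/- zymosan library 4, Il33), and 0 to 1 higher at rest (1, Il1rn, without untreated Mcu-/- replicate 4). It gave 1 to 3 members with a larger response in Mcu-/- cells (3 without untreated Mcu-/- replicate 4) and 0 to 3 with a smaller one, where leaving out WT untreated replicate 1 or 4 or Mcu-/- zymosan library 4 gave 0. Over all genes, calls with BAPTA-AM went from 1494 to 3529 with the groups alone and 3712 without untreated Mcu-/- replicate 4, and differences of response from 4122 to 7039. Calls at rest went from 41 to 25 with at least 10 counts, 112 with DESeq2, 5 with the groups alone, 26 and 22 without WT untreated replicate 1 or 2, and 391 without untreated Mcu-/- replicate 4. Library totals lowered zymosan against untreated log2 values by 0.49 in WT and 0.52 in Mcu-/- cells. Genes under about 50 counts limit what small changes could be seen. Among them were Il1rl1 in all groups, and Il1a, Il1b, Il33 and Il1r1 at rest.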
